A study of Mus musculus with 10 samples.

Results

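The protein Lin28a binds RNA and is made in the early embryo and in stem cells. It attaches to the precursors of let-7 microRNAs, blocks their processing by Dicer and recruits terminal uridylyl transferases that mark them for decay. Mature let-7 lowers the RNA of genes that promote growth and early developmental programmes, so cells with Lin28a are known to keep the RNA of let-7 targets. The comparison described here is the RNA of mouse neural stem cell cultures that overexpressed Lin28a against that of control cultures at passage 1 (P1), the earliest time sampled. It was chosen as the RNA-seq library labelled Lin28a at P1 set against the RNA-seq library labelled control at P1, which are 2 of the 10 libraries in the series. Of 17919 genes in both tables, 12564 had a value of 1 or more in either library and entered the comparison.

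The Lin28a culture was ventral midbrain neural stem cells of ICR mice, taken at embryonic day 10, that had been transduced with a lentivirus carrying Lin28a. The control culture was the same kind of cells with a mock control virus. Both were expanded in culture and passaged every 4 days. Lin28a and control cultures were also sampled at passage 3 (P3), and those values are given beside the P1 values where they add to them. With 1 library a group there is no replicate check of any difference, and no test was run. The promoter of the virus, the share of cells transduced, the number of embryos and whether a culture came from pooled embryos are not stated in the labels. In bulk RNA, fewer cells of a type and less RNA per cell cannot be told apart.

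The let-7 guide strands were a second readout of cultures of the same design at P1. They are printed because 9 of the 10 measured let-7 and miR-98 guides share the seed GAGGUAG, which pairs with target RNAs. Capitals mark the seed, bases 2 to 8 from the 5′ end, and the mature sequences are those of RefSeq (GRCm38.p6).
let-7a-5p: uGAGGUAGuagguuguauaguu
let-7b-5p: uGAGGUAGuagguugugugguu
let-7c-5p: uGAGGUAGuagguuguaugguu
let-7d-5p: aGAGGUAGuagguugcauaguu
let-7e-5p: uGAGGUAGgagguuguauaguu
let-7f-5p: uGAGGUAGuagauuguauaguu
let-7g-5p: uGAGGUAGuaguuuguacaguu
let-7i-5p: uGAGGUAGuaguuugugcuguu
miR-98-5p: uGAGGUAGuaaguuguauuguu

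In the small RNA libraries of P1, let-7 guides were lower in sum in the Lin28a culture, with ratios that differed between family members. Their sum was 45113 CPM (counts scaled to the microRNA total of the library) in Lin28a and 55229 CPM in control, from 373938 and 349188 counts. The ratio of the sums was 0.817, with an exact conditional binomial 95% interval of 0.813 to 0.821 that covers counting error only. Among the 9 guides printed, the ratio was lowest for let-7b-5p, at 500 CPM in Lin28a against 909 CPM in control (ratio 0.550, interval 0.528 to 0.572). It was 0.653 for let-7f-5p and lay between 0.708 and 0.739 for let-7d-5p, let-7g-5p, let-7i-5p and miR-98-5p. let-7a-5p stood at 0.843. let-7c-5p and let-7e-5p had ratios of 1.09 and 1.06, which became 0.977 and 0.951 under median-of-ratios scaling, and their sequences hold the same seed as the others. The median log2 ratio of the 414 microRNAs at 10 CPM or more was 0.17, so the guides were lower relative to the other microRNAs than the ratios to the library totals show. Since the guides differ from each other by a few bases outside the seed and reads of a guide with several loci may have been counted repeatedly, levels of different guides are not compared. The remaining guide, let-7j, had 1 count in Lin28a and 6 counts in control.

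**Figure D1:**
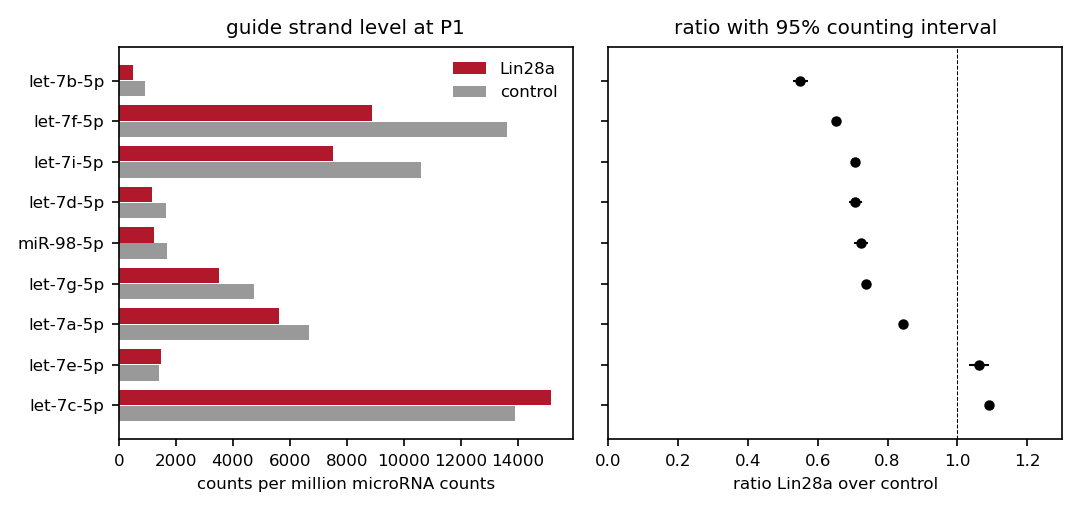
Guide strands of let-7 and miR-98 at P1, as bars of CPM in Lin28a (red) and control (grey), and as points of the Lin28a over control ratio with its 95% counting interval. Of the 9 guides drawn, 7 have ratios below 1, between 0.550 and 0.843, and let-7c-5p and let-7e-5p lie at 1.09 and 1.06 (0.977 and 0.951 under median-of-ratios scaling).

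The overexpressed gene followed the labels. Lin28a (NM_145833) had 478 FPKM in the Lin28a library and 0.128 FPKM in the control library, a log2 ratio of 8.73. FPKM are fragments per gene length and library total, and each log2 ratio is that of Lin28a over control after 1 was added to both values, which understates differences of low genes. Reads of the virus and of the endogenous gene fall on the same Lin28a coding sequence and are not separated in these values. The paralog Lin28b, which also blocks let-7 maturation, was low in both libraries, with 0.762 FPKM in Lin28a and 0.725 FPKM in control, and did not enter the comparison.

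The markers matched the label of ventral midbrain neural stem cells in both libraries. All 14 markers of neural stem or progenitor cells reached 1 FPKM in both, with summed levels of 3410.2 FPKM in Lin28a and 3764 FPKM in control. Sox2, a transcription factor of neural progenitors, had 260 FPKM in Lin28a and 262 FPKM in control. All 12 ventral midbrain markers did so too, with sums of 323 and 318 FPKM in Lin28a and control. All 10 neuron markers were also at 1 FPKM or more in both libraries, with sums of 941 FPKM in Lin28a and 1106 FPKM in control, so the cultures held RNA of neurons beside that of progenitors.

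Most of the transcriptome differed little between the 2 libraries. The median log2 ratio over all entered genes was -0.01, and the percentiles 5 and 95 were -0.36 and 0.30. By any amount 48.4% of the entered genes were higher and 51.6% lower in Lin28a, and past 1.5-fold 0.613% and 0.963% were. The counts of the gene lists below are to be read beside these shares. Low genes spread more, with 4.10% of genes past a 1.5-fold difference at a mean below 3 FPKM, against 0.708% at 100 FPKM or more. The most frequent ratio between the steps of low values would put the Lin28a library at 1.16 times the depth of control, but no more than 157 of 2051 low genes lay within 0.01 of it on the log2 scale. The total depth of both libraries is unknown. At the entry threshold, Ttll11 was just inside with 1.00 FPKM in Lin28a and 0.965 FPKM in control, and Ptpn6 just outside with 0.846 and 0.998 FPKM in Lin28a and control.

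Past a 2-fold difference, 17 genes were higher and 12 lower in Lin28a, which is 0.135% and 0.0955% of the genes entered. Genes with an estimate in both libraries made up 11 of the higher and 8 of the lower genes. The others were listed at 4.8e-07 in 1 library, the floor of the tables. Since broadly expressed genes are among them, the floor was read as no estimate, not as absence, and these genes get no fold here. Of the 11 higher genes, 10 entered at P3 with estimates in both P3 libraries and 8 of them were higher there. Among these 8 are the overexpressed Lin28a, the pseudogene Apoo-ps, and Tmem254c and Snurf, whose reads can be split with other genes. Cxcl10, also among them, had a P3 log2 ratio of only 0.07. Of the 8 lower ones, 7 did and 6 of them were lower there, including the gene copies Tmem254b and Hist2h2aa2. Over all genes entered at P3, 48.5% were higher and 51.5% lower.

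The higher genes with known roles included a pair of let-7 targets. Hmga2, a chromatin protein of growing embryonic cells, had 14.6 FPKM in Lin28a and 4.10 FPKM in control (log2 ratio 1.62). Igf2bp1, a fetal RNA-binding protein that stabilises growth-related RNAs, had 23.4 FPKM in Lin28a and 9.53 FPKM in control (1.21). Both were also higher at P3, with 5.68 against 1.43 FPKM for Hmga2 and 6.44 against 1.32 FPKM for Igf2bp1 in Lin28a and control. The cell cycle inhibitor Cdkn1a, a target of p53, had 71.7 FPKM in Lin28a and 34.4 FPKM in control at P1 (1.04), while at P3 it had 140 and 148 FPKM in Lin28a and control. The chemokines Cxcl1 and Cxcl10 were low in both libraries, with 1.94 and 3.10 FPKM in Lin28a against 0.124 and 0.608 FPKM in control. At P3 Cxcl1 was again higher, with 5.28 FPKM in Lin28a and 1.25 FPKM in control, and Cxcl10 was at a log2 ratio of 0.07.

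The lower genes with known roles were led by genes that low oxygen is known to induce. Slc16a3, an exporter of lactate, had 0.860 FPKM in Lin28a and 6.29 FPKM in control (log2 ratio -1.97). Bnip3, a mitochondrial protein that promotes mitophagy, had 15.0 FPKM in Lin28a and 37.5 FPKM in control (-1.27). Pdk1, a kinase that inhibits pyruvate dehydrogenase, had 3.65 FPKM in Lin28a and 8.81 FPKM in control (-1.08). Ramp1, which pairs with receptors of the calcitonin family, had 1.33 FPKM in Lin28a and 4.45 FPKM in control (-1.23), and it was lower again at P3 with 24.2 and 55.3 FPKM in Lin28a and control. Htr3a, a subunit of a serotonin-gated channel, had 7.16 FPKM in Lin28a and 15.9 FPKM in control (-1.05), and 16.1 and 13.5 FPKM in Lin28a and control at P3.

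Several of the largest ratios belong to copies or overlapping genes whose reads can be split. Tmem254c had 6.80 FPKM in Lin28a and 0.00483 FPKM in control, and its near-identical copy Tmem254b had 0.851 and 7.10 FPKM in Lin28a and control. Their sum was 7.65 FPKM in Lin28a and 7.11 FPKM in control, so the opposite ratios of the copies are uncertain. Snurf, which shares a transcript with Snrpn, had 28.8 FPKM in Lin28a and 3.55 FPKM in control (log2 ratio 2.71), while Snrpn had 65.0 and 101 FPKM in Lin28a and control (-0.63). Together they had 93.8 FPKM in Lin28a and 105 FPKM in control (-0.16). The histone copy Hist2h2aa2 had 0.939 FPKM in Lin28a and 2.90 FPKM in control, and summed with Hist2h2aa1 it had 3.94 and 4.17 FPKM in Lin28a and control. The pseudogene Apoo-ps had 1.07 FPKM in Lin28a and 0.00293 FPKM in control.

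Short non-coding RNAs and genes at the floor made up much of the rest. Of the genes with estimates in both libraries, the small nucleolar RNA Snord22 had 117 FPKM in Lin28a and 30.4 FPKM in control, Snord15b had 5.45 and 20.4 FPKM in Lin28a and control, and the RNase P RNA Rpph1 had 2.19 and 0.314 FPKM in Lin28a and control. Snora28, Snora81, Snora23, Snord17, Rprl3 and Hist1h4a were listed at the floor in control, with 74.0 FPKM in Lin28a for Snora28 and between 1.29 and 7.18 FPKM for the other 5. Snora34, Mir466i and the mRNAs G3bp2 and Hnrnpd were listed at the floor in Lin28a, with 235, 45.4, 90.2 and 63.2 FPKM in control. G3bp2, a stress granule protein, and Hnrnpd, a protein that binds AU-rich RNA, are broadly expressed, and at P3 they had 61.2 and 26.8 FPKM in Lin28a against 49.8 and 21.4 FPKM in control. Their P1 values in Lin28a are therefore not given as levels.

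**Figure D2:**
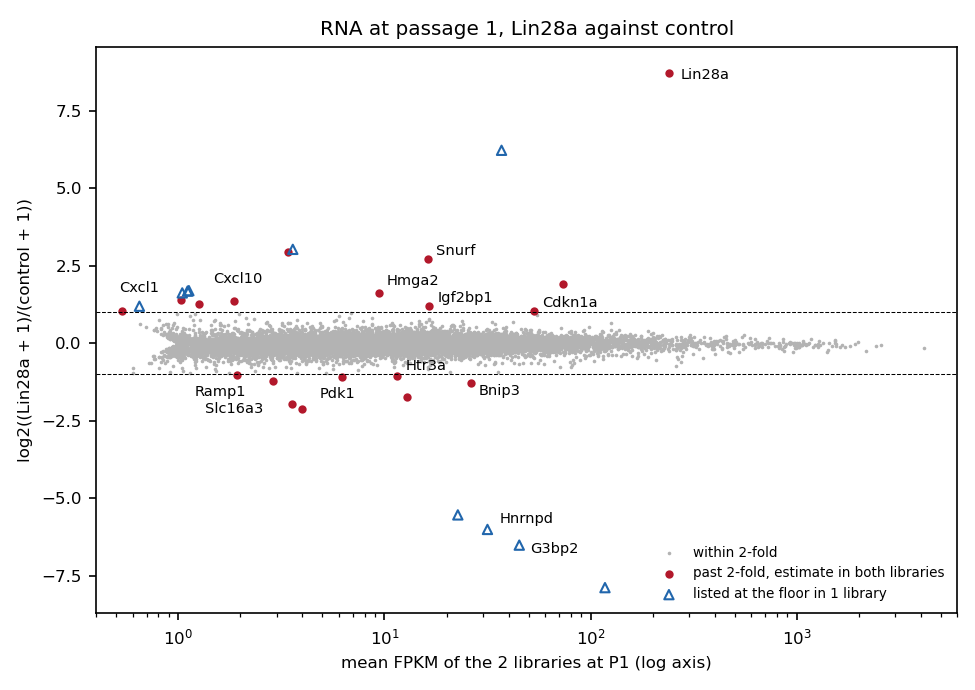
Each entered gene at P1 by its mean FPKM (log axis) and its log2 ratio of Lin28a over control, with dashed lines at a 2-fold difference. Red points are the 11 higher and 8 lower genes past 2-fold with an estimate in both libraries, triangles the 6 higher and 4 lower genes listed at the floor in 1 library, and Lin28a stands apart at 8.73.

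The known targets of let-7 were more often higher than lower in Lin28a, and unevenly so. Of 45 listed, 40 entered, all with at least 1 FPKM in both libraries. Of these, 29 were higher and 11 lower by any amount, where 48.4% and 51.6% of all entered genes were. Past 1.5-fold, 9 were higher and 1 lower, where 0.613% and 0.963% of all entered genes were. Their median log2 ratio was 0.15, against -0.01 for all genes. The list was drawn from the literature on let-7 and does not say which guide acts on which gene.

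After Hmga2 and Igf2bp1, the largest ratio was that of Cdc34, a ubiquitin-conjugating enzyme of the cell cycle, with 72.3 FPKM in Lin28a and 38.1 FPKM in control (0.91). Arid3b, a DNA-binding protein of embryonic tissue, had 4.99 FPKM in Lin28a and 2.56 FPKM in control (0.75). Hic2, a transcriptional repressor, had 7.38 FPKM in Lin28a and 4.06 FPKM in control (0.73). The matrix glycoprotein Thbs1 was at 18.6 FPKM in Lin28a and 10.9 FPKM in control (0.72), and the zinc finger factor Plagl2 at 21.3 and 12.7 FPKM in Lin28a and control (0.70). Dicer1, which cuts microRNA precursors and is itself a let-7 target, had 20.5 FPKM in Lin28a and 13.2 FPKM in control (0.60).

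The Igf2bp family differed in size though not in direction. Igf2bp2 had 13.2 FPKM in Lin28a and 8.44 FPKM in control (0.59), and Igf2bp3 had 32.7 and 26.1 FPKM in Lin28a and control (0.32), beside 1.21 for Igf2bp1. Between 0.25 and 0.52 lay the phosphatases Dusp1 (0.52), Dusp16 (0.43) and Cdc25a (0.40), the transcription factors Plagl1 (0.47), E2f6 (0.46) and Mycn (0.25), and the TGF-beta receptor Tgfbr1 (0.41). Tgfbr1 had 44.7 FPKM in Lin28a and 33.4 FPKM in control at P1, and 35.8 and 12.2 FPKM in Lin28a and control at P3.

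Some of the best known let-7 targets had ratios near 0 or below it. The Ras genes Nras and Hras1 were at 0.11 and -0.02. The D cyclins Ccnd1 and Ccnd2 were at 0.01 and -0.05, with 46.2 and 200 FPKM in Lin28a against 45.8 and 206 FPKM in control. Hmga1, the paralog of Hmga2, had 66.0 FPKM in Lin28a and 64.1 FPKM in control (0.04), and the kinase Cdk6 was at -0.09. Myc was lower, with 13.4 FPKM in Lin28a and 20.6 FPKM in control (-0.59), and it was lower at P3 too (-0.44). The receptors Igf1r (0.09) and Insr (-0.12) and the adaptor Irs2 (-0.10) lay within the spread of most genes.

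**Figure D3:**
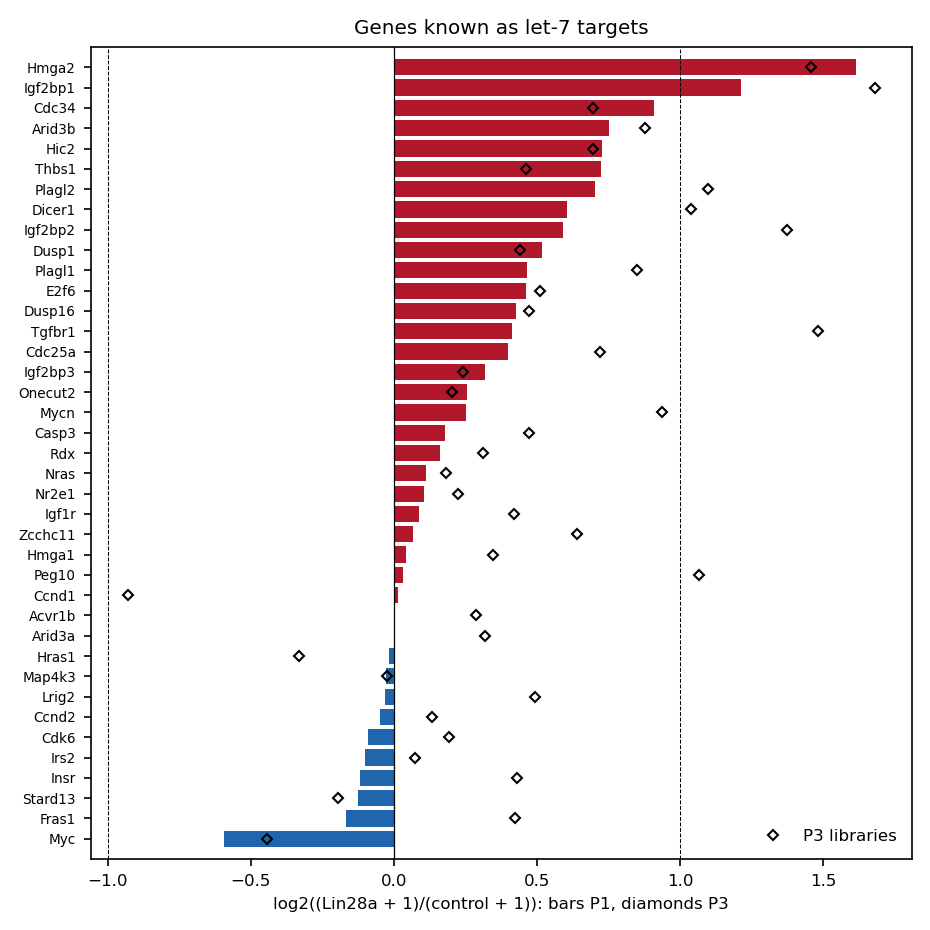
Log2 ratio of Lin28a over control for 39 of the 40 entered let-7 targets, as bars at P1 (red higher, blue lower) and diamonds at P3, with dashed lines at a 2-fold difference. Hmga2 and Igf2bp1 pass 2-fold at P1, Myc has the lowest P1 ratio at -0.59, and the P3 diamonds lie above 0 for most genes, with Ccnd1 at -0.93.

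Of the genes that make, load or regulate let-7, 26 of 28 in the table entered. In Lin28a 18 were higher and 8 lower, with a median of 0.07. The higher ones include the overexpressed Lin28a itself, which entered through the Lin28a library alone. At 1 FPKM or more in both libraries were 25 members, 17 higher and 8 lower, with a median of 0.07. Over all entered genes 48.4% were higher and 51.6% lower. Apart from Lin28a itself the largest ratio was that of Tarbp2, the Dicer partner that binds double-stranded RNA, at a log2 ratio of 0.68. Dicer1 came next, at the 0.60 given above, and then Ago2, the slicing Argonaute, with 20.4 FPKM in Lin28a and 15.3 FPKM in control (0.39). The nuclear processor subunits Dgcr8 and Drosha were at 0.35 and 0.25. The exporter Xpo5 was at -0.01, and the uridylyl transferases Zcchc11 and Zcchc6, which tail let-7 precursors with Lin28a, were at 0.06 and 0.07. Dis3l2, the exonuclease that degrades the tailed precursors, had 12.2 FPKM in Lin28a and 15.1 FPKM in control (-0.29). At P3 Dicer1 and Ago2 had larger ratios, of 1.04 and 1.26.

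DNA replication genes were higher in Lin28a in all 51 cases, by small amounts. Their median log2 ratio was 0.33, none passed 2-fold and 2 passed 1.5-fold. Among all entered genes 48.4% were higher by any amount and 0.613% past 1.5-fold. The range ran from 0.02 for the primase subunit Prim2 to 0.62 for the thymidine kinase Tk1, which had 41.7 FPKM in Lin28a and 26.8 FPKM in control. Chaf1b, a subunit of the complex that deposits histones on new DNA, had 18.4 FPKM in Lin28a and 11.7 FPKM in control (0.61). The S-phase transcription factor E2f2 had 4.58 FPKM in Lin28a and 2.82 FPKM in control (0.55), and the replication initiator Mcm10 had 9.68 and 6.44 FPKM in Lin28a and control (0.52). All members had at least 1 FPKM in both libraries. At P3 the list had 35 of 50 members higher, 15 lower and a median of 0.11, where 48.5% of all genes entered at P3 were higher and 51.5% lower.

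The promoter of Chaf1b, a gene among the highest of this list, is printed as an example of a window that held motif matches. The motif TTCCCGC, known for E2F factors, and its variants with the letters TTGGCGC, the letters TTCGCGC or the letters TTGCCGC were searched on both strands. The windows were those of RefSeq (GRCm38.p6), from 250 bases before to 50 after each start. Capitals mark the 2 matches, which read GCGGGAA on this strand.
Chaf1b, chr16:93883651-93883950, plus strand: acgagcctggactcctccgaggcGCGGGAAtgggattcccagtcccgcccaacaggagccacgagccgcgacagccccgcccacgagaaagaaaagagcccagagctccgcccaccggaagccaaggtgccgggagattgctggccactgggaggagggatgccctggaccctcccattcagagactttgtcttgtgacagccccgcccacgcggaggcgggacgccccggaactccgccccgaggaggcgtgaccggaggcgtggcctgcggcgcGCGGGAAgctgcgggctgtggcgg
Promoters were found for 41 of the 51 replication genes, and 29 of their 49 windows (59.2%) held 1 of these motifs or more. The share was 17.0% of 12831 windows of entered genes and 9.57% of all 32851 windows. Base composition was not matched between these sets, and a match is a description and not a binding site. The windows of Tk1, the highest gene of the list, and of Mcm10 held no match and are not printed.

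Of 48 mitosis genes 45 were higher, at a median of 0.18 and with no member past 1.5-fold, where 48.4% of all entered genes were higher. Mybl2, a transcription factor of cell cycle genes, led with 10.6 FPKM in Lin28a and 6.78 FPKM in control (0.58). The kinetochore gene Cenpk followed at 0.42, and the kinases Aurka and Melk were at 0.37 and 0.31, with 32.1 and 18.0 FPKM in Lin28a against 24.6 and 14.3 FPKM in control. In contrast to replication, the mitosis list had a larger median at P3, 0.71, with all 48 members higher. The list of G1 cyclins and kinases, which also holds Myc, Max, Mxd and Rb family genes, was nearly even at P1. In it 7 of 15 were higher, with a median of -0.05. Its D cyclins Ccnd1, Ccnd2 and Ccnd3 were at 0.01, -0.05 and 0.16. Its kinases Cdk2, Cdk4 and Cdk6 were at 0.26, 0.21 and -0.09. Among the other members, ratios ran from -0.59 for Myc to 0.25 for Mycn.

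Beside the proliferation genes, 28 of 42 inhibitors of cyclin-dependent kinases and p53 targets were higher, at a median of 0.14. The inhibitors themselves were mostly lower. Of the 7 Cdkn genes 2 were higher and 5 lower, with Cdkn1a at 1.04, Cdkn2a at 0.02, Cdkn1b and Cdkn2c at -0.17 each, Cdkn1c at -0.26, Cdkn2d at -0.36 and Cdkn2b at -0.39, and of the other 35 members 26 were higher. Past 1.5-fold, 3 members of the whole list were higher and 1 lower. After Cdkn1a the highest were Sesn2, a stress-induced inhibitor of mTOR signalling, with 29.9 FPKM in Lin28a and 17.9 FPKM in control (0.71), and Perp, a p53-induced membrane protein, with 6.22 and 3.56 FPKM in Lin28a and control (0.66). Igfbp3, a binding protein of insulin-like growth factors, was lower, with 61.7 FPKM in Lin28a and 101 FPKM in control (-0.70). At P3 the list split evenly, 21 higher and 21 lower, and Sesn2 was at -0.07 and Perp at -0.12 while Igfbp3 was at -1.56.

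Chromatin and splicing genes were also mostly higher by small amounts. Of 29 genes of chromatin and DNA methylation, 23 were higher, with a median of 0.11. Mtf2 and Ezh2, which belong to Polycomb repressive complex 2, had 25.8 and 62.8 FPKM in Lin28a against 16.8 and 48.2 FPKM in control (0.59 and 0.38). Cbx2, of Polycomb repressive complex 1, was at 0.55. Of 37 splicing factors 34 were higher (median 0.15), and their largest ratio was 0.36, that of Srsf7. Hnrnpd, which is listed at the floor in Lin28a, is 1 of the 3 counted as lower.

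Genes that low oxygen is known to induce were lower in Lin28a as a group. Of 39 entered, 36 were lower and 3 higher, with a median of -0.40, and 8 were lower past 1.5-fold with none higher. The shares over all entered genes were 51.6% lower by any amount and 0.963% lower past 1.5-fold. Through control alone 3 members entered, and of the 36 at 1 FPKM or more in both libraries 33 were lower. Besides Bnip3 and Pdk1 the largest differences were those of lactate dehydrogenase Ldha, with 197 FPKM in Lin28a and 325 FPKM in control (-0.72), and of Igfbp3. Hif1a, whose protein induces these genes and is controlled by its stability, had 50.3 FPKM in Lin28a and 47.4 FPKM in control (0.08), and it is named after its value was seen, as are Vegfa and Pgk1. Vegfa, the vascular growth factor, had 21.7 FPKM in Lin28a and 35.0 FPKM in control (-0.66).

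Glycolysis genes overlap with that list, and 22 of 27 were lower, at a median of -0.33. Slc16a3 entered through control alone and 1 member through Lin28a alone. Of the 25 at 1 FPKM or more in both libraries 21 were lower. Past 1.5-fold, 7 of the 27 were lower and none was higher. All entered genes were lower in 51.6% of cases by any amount and in 0.963% past 1.5-fold. Next to Slc16a3, Pdk1 and Ldha stood the phosphofructokinase Pfkl, at a log2 ratio of -0.71, and phosphoglycerate kinase Pgk1 had 221 and 312 FPKM in Lin28a and control (-0.50). By contrast, Gapdh was at 0.08 and Ldhb at 0.05. Oxidative phosphorylation genes stood nearer to all genes, with 56 of 78 lower and a median of -0.05. At P3 the 4 leading genes had much higher FPKM in both libraries and smaller differences, with ratios of -0.12 for Slc16a3, -0.28 for Bnip3, -0.22 for Pdk1 and -0.12 for Ldha.

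The promoters of the 3 genes past 2-fold are printed, with the motifs ACGTG and GCGTG, the core known for hypoxia-inducible factors, in capitals. Both strands were searched, so CACGT and CACGC mark the other strand, and neighbouring matches can overlap.
Bnip3, chr7:138909457-138909756, minus strand: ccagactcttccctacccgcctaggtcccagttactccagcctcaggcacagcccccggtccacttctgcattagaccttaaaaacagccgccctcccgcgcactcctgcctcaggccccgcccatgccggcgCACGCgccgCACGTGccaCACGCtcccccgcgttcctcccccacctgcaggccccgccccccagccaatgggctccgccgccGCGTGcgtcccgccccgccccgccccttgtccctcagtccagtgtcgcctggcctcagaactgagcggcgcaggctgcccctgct
Pdk1, chr2:71872974-71873273, plus strand: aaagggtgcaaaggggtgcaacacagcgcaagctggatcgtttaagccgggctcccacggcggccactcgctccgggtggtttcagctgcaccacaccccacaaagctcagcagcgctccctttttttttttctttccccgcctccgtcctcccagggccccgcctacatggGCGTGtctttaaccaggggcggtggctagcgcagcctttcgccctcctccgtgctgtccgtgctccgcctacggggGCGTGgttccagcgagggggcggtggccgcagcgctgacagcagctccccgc
Slc16a3, chr11:120948817-120949116, plus strand: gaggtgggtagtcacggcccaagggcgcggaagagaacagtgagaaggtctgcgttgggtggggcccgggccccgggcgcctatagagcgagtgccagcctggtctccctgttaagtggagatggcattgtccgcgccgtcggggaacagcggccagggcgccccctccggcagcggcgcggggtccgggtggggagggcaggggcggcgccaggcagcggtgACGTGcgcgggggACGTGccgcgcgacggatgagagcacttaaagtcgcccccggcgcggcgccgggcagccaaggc
The Bnip3 window held 5 matches, and those of Pdk1 and Slc16a3 held 2 each. A second Pdk1 start had none. Promoters were found for 32 of the 39 hypoxia-induced genes, and 35 of their 44 windows (79.5%) held a match, as did 33 of 44 windows (75.0%) for 26 of the 27 glycolysis genes. The motif is common, at 62.5% of the windows of entered genes and 43.8% of all windows, and base composition was not matched.

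Genes of glial cells were lower in Lin28a. Of 31 astroglial genes entered, 27 were lower and 4 higher, with a median of -0.37 and 8 lower past 1.5-fold. Over all entered genes 51.6% were lower by any amount and 0.963% past 1.5-fold. The bicarbonate transporter Slc4a4 had 11.7 FPKM in Lin28a and 20.7 FPKM in control (-0.77). The metallothioneins Mt3 and Mt1, which bind zinc and copper, had 24.3 and 52.7 FPKM in Lin28a against 46.5 and 89.7 FPKM in control (-0.91 and -0.76). Gfap, the filament protein of mature astrocytes, had 0.269 FPKM in Lin28a and 0.743 FPKM in control and did not enter the comparison. S100b, another astrocyte marker that did not enter, went the other way, with 0.112 FPKM in Lin28a and 0.0519 FPKM in control. Of 7 astrocyte markers 4 reached 1 FPKM in each library. The 7 summed to 132 FPKM in Lin28a and 178 FPKM in control, of which Aldh1l1 made up 63.5 and 96.3 FPKM. At P3 33 of 36 astroglial genes were lower, with a median of -0.62.

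Oligodendrocyte lineage genes were lower with a median of -0.52. Of 22 entered, 19 were lower and 3 higher, with 8 lower past 1.5-fold, beside 51.6% and 0.963% of all entered genes lower at these sizes. Through control alone 3 members entered and through Lin28a alone 1, and of the 18 at 1 FPKM or more in both libraries 16 were lower. With no filter on low values, 30 of 36 were lower and the median was -0.23. The lineage factor Olig1 had 59.1 FPKM in Lin28a and 101 FPKM in control (-0.76). Olig2, named after its value was seen, had 34.4 FPKM in Lin28a and 55.7 FPKM in control (-0.68). Pdgfra, the receptor of oligodendrocyte precursors, had 0.458 FPKM in Lin28a and 1.81 FPKM in control (-0.95), Sox10 had 0.173 and 1.04 FPKM (-0.80) and Bcas1 had 1.34 and 3.37 FPKM (-0.90) in Lin28a and control. The summed level of 10 oligodendrocyte markers was 112 FPKM in Lin28a, where 6 reached 1 FPKM, and 186 FPKM in control, where 8 did. The part of glial cell number in these values was not tested.

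Neuronal genes were mostly lower by small amounts. Of 47 pan-neuronal genes 40 were lower and 7 higher, with a median of -0.19 and 2 lower past 1.5-fold. For all entered genes the shares were 51.6% lower by any amount and 0.963% past 1.5-fold. The microtubule protein gene Mapt had 43.4 FPKM in Lin28a and 67.4 FPKM in control (-0.62), and the growth cone gene Gap43 had 140 and 196 FPKM in Lin28a and control (-0.48). Scg3, of secretory granules, was at -0.45. The summed level of the 10 neuron markers given above was lower in Lin28a as well, and the part of neuron number in these values was not tested. At P3 39 of 43 pan-neuronal genes were higher in Lin28a, 20 past 2-fold, so the list lay on opposite sides of 0 at the 2 passages. Among all genes entered at P3, 48.5% were higher by any amount and 1.31% past 2-fold.

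Midbrain identity genes differed less. In the list of 34 floor plate and ventral midbrain genes 23 were lower, with a median of -0.09 and 1 past 1.5-fold. That gene was Wnt1, a signal of the midbrain and hindbrain border, with 10.0 FPKM in Lin28a and 5.74 FPKM in control (0.71). The matrix gene Spon1 was at -0.37, the Hedgehog-binding Hhip at -0.34 and the adhesion gene Alcam at -0.29. Of the 12 ventral midbrain markers 6 were higher and 6 lower, with a median of -0.01. Among them the factors Otx2 and Foxa1 had 72.9 and 48.8 FPKM in Lin28a against 65.0 and 42.7 FPKM in control, and the morphogen Shh and the floor plate factor Foxa2 had 45.3 and 15.9 FPKM in Lin28a against 50.6 and 18.4 FPKM in control. Of 22 dopamine neuron genes 17 were lower, with a median of -0.17. The dopamine-synthesis enzyme Ddc had 4.06 FPKM in Lin28a and 7.19 FPKM in control (-0.70), and the peptide gene Cck had 5.94 and 10.0 FPKM in Lin28a and control (-0.67). Calb1 and Lmo3 were at -0.37 and -0.32. At P3 the medians of these lists were 0.66 and 0.58.

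Of 25 neural progenitor genes 17 were lower, at a median of -0.11. The nuclear receptor Nr2f1 was at -0.51, the matrix gene Tnc at -0.46, the phosphatase Ptprz1 at -0.42 and the homeodomain gene Hopx at -0.41. Notch pathway genes were even, 12 higher and 13 lower, with a median of -0.01 and no ratio beyond -0.30 for Hes5. Of 15 Hedgehog genes 11 were lower (median -0.10), with Gas1 at -0.56 and Gli3 at 0.33. Wnt genes were 23 higher and 19 lower (median 0.00), with the target Sp5 at 0.45 and the factor Tcf7l1 at 0.44 behind Wnt1. Of 24 FGF and Sprouty genes 15 were lower (median -0.17), but with no filter on low values 17 of 31 were lower and the median was -0.01. Fgf11 had 1.42 FPKM in Lin28a and 3.07 FPKM in control (-0.75), and Spry4 was at -0.44. BMP, TGF-beta and Id genes were 19 higher and 15 lower (median 0.02), with Gdf10 at -0.68, Ctgf at -0.48 and Id1 at 0.35 beside Tgfbr1. Regional homeobox genes were even as well (18 higher, 19 lower), and Dbx2 at -0.71 and Lhx9 at 0.58 were their extremes, both under 3 FPKM in both libraries. Of 43 Slit, Robo, netrin and ephrin genes 33 were lower, at a median of -0.15, led by Efna3 at -0.58.

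Interferon and immediate early genes showed scattered differences at P1, while chemokine and inflammatory genes were mostly lower in Lin28a. Of 21 interferon and antigen presentation genes 12 were higher (median 0.08). Through Lin28a alone 2 members entered, Isg15 and Usp18. Of the 19 at 1 FPKM or more in both libraries 10 were higher and 9 lower, with a median of 0.01. With no filter on low values 31 of 42 were higher and 11 lower, and the median was 0.14. The members this adds were below 1 FPKM in both libraries. At 5 FPKM or more in either library the median was -0.002. Isg15 had 1.61 FPKM in Lin28a and 0.344 FPKM in control (0.96), and Ifi27 had 2.90 and 1.02 FPKM in Lin28a and control (0.95). Usp18 and Bst2 followed at 0.59 and 0.53, while H2-T23, a class I antigen presentation gene, and Ifitm3, an antiviral membrane protein, were the lowest at -0.40 and -0.38. At P3 27 of 28 members were lower, and Ifi27 had 2.27 FPKM in Lin28a and 5.64 FPKM in control. Of 20 chemokine and inflammatory genes 17 were lower in spite of Cxcl1 and Cxcl10, which entered through Lin28a alone, and of the 14 at 1 FPKM or more in both libraries all 14 were lower, among them Cebpd (-0.53) and Cx3cl1 (-0.47). Immediate early genes were 13 higher and 14 lower, with Atf3 at 0.94, Arc at -0.69 and Fosl2 at 0.63, all under 3 FPKM in both libraries. Imprinted genes other than Snurf and Snrpn lay between -0.70 for Ddc and 0.48 for Airn, with 16 of all 35 higher and a median of -0.01.

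**Figure D4:**
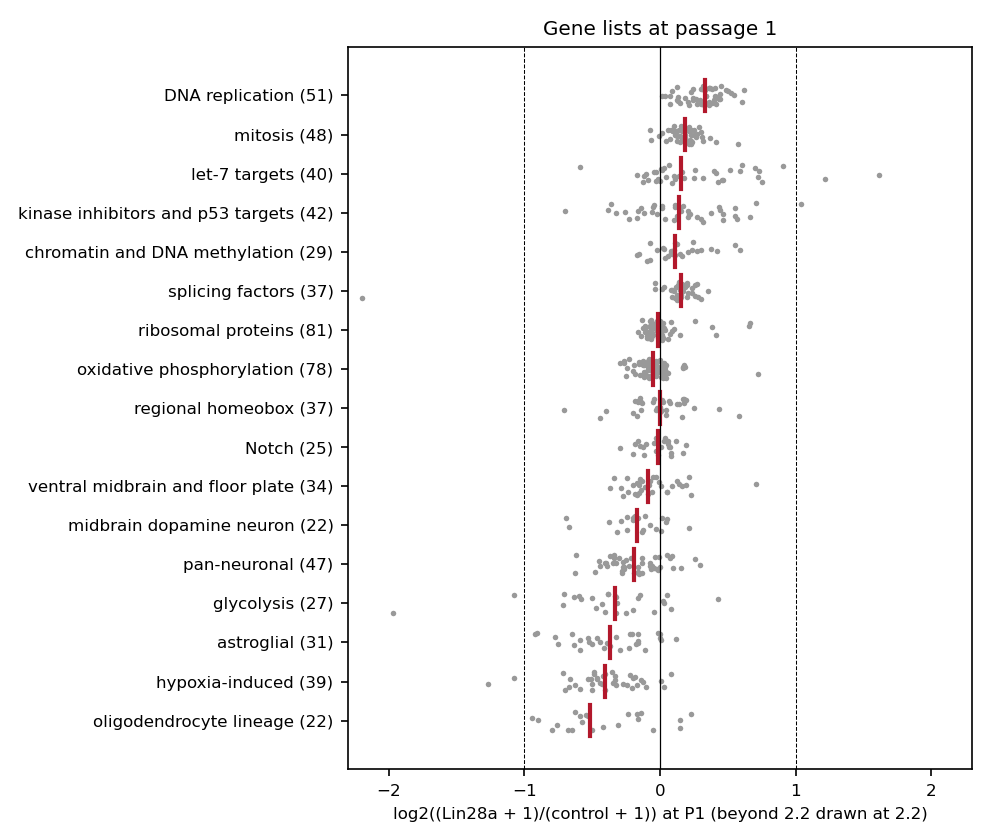
Log2 ratio of Lin28a over control at P1 for the members of 17 gene lists (number of members entered in brackets), with grey points for genes and a red bar for the median, and dashed lines at a 2-fold difference. The medians run from 0.33 for DNA replication to -0.52 for the oligodendrocyte lineage, and the point at the left edge of the splicing factors is Hnrnpd, which is listed at the floor in Lin28a and drawn at the limit of the axis.

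Housekeeping lists stayed near 0. Ribosomal protein genes were 27 higher and 54 lower, with a median of -0.02, and translation factors 23 higher and 14 lower, with a median of 0.04 and no ratio beyond 0.25. Rpl26 and Rpl34 were the highest ribosomal genes, at 0.66 each, with 153 and 16.8 FPKM in Lin28a against 96.6 and 10.3 FPKM in control, and genes of this family have near-identical pseudogenes that can share their reads. Genes of insulin, PI3K and mTOR signalling were 21 higher and 18 lower (median 0.01). Of 40 antioxidant and metallothionein genes 28 were lower (median -0.07), the 3 metallothioneins the most, with Mt2 at -0.59. Of 26 cholesterol synthesis genes 21 were lower, none of them below -0.27, at a median of -0.12. Of 40 collagen, laminin and integrin genes 30 were lower (median -0.14), with Col1a2 at -0.59 and Col1a1 at -0.54, and the let-7 target Thbs1 highest.

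Apart from mesenchymal markers, few markers of cells other than neural ones reached 1 FPKM. Of 7 endothelial markers in the table only Kdr reached 1 FPKM, with summed levels of 9.15 FPKM in Lin28a and 8.32 FPKM in control and Cldn5 listed at the floor in both. Of 9 microglia or macrophage markers only Lyz2 did, with sums of 4.52 and 4.29 FPKM in Lin28a and control. Both erythroid markers and the pluripotent marker in the table were below 1 FPKM in both libraries. Mesenchymal markers reached 1 FPKM in 10 of 10 cases, with sums of 130 FPKM in Lin28a and 144 FPKM in control, and 11 of the 15 genes of the wider mesenchymal list were lower (median -0.14). Of 6 markers of neural crest or Schwann cells 1 reached 1 FPKM in Lin28a and 2 in control, with sums of 99.8 and 119 FPKM, nearly all of it Ednrb, which neural progenitors also express. Foxd3 was at the floor in both.

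Set beside P3, the lists showed different patterns. The P3 libraries are separate from the P1 libraries, though they come from the same design with 1 library a group. At P3, 166 genes (1.31%) were higher and 171 (1.34%) lower past 2-fold. The let-7 targets were on the same side at both passages, with medians of 0.15 at P1 and 0.45 at P3, 33 of 38 higher at P3 and 7 of them past 2-fold. Astroglial, oligodendrocyte, glycolysis and hypoxia-induced genes were below 0 at both. Mitosis genes were above 0 at both, and replication genes too, with the smaller median at P3. Interferon and antigen presentation genes had medians of 0.08 at P1 and -0.50 at P3. Pan-neuronal, dopamine neuron, ventral midbrain, Hedgehog, Slit, Robo, netrin and ephrin genes had medians below 0 at P1 and above 0 at P3. Imprinted, Notch, regional homeobox and ribosomal protein genes did too, but with P1 medians of -0.01, -0.01, -0.002 and -0.02. These are near the -0.01 of all entered genes, so those lists had no clear side at P1. Whether any of these differences between passages exceeds the variation between cultures was not tested.

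**Figure D5:**
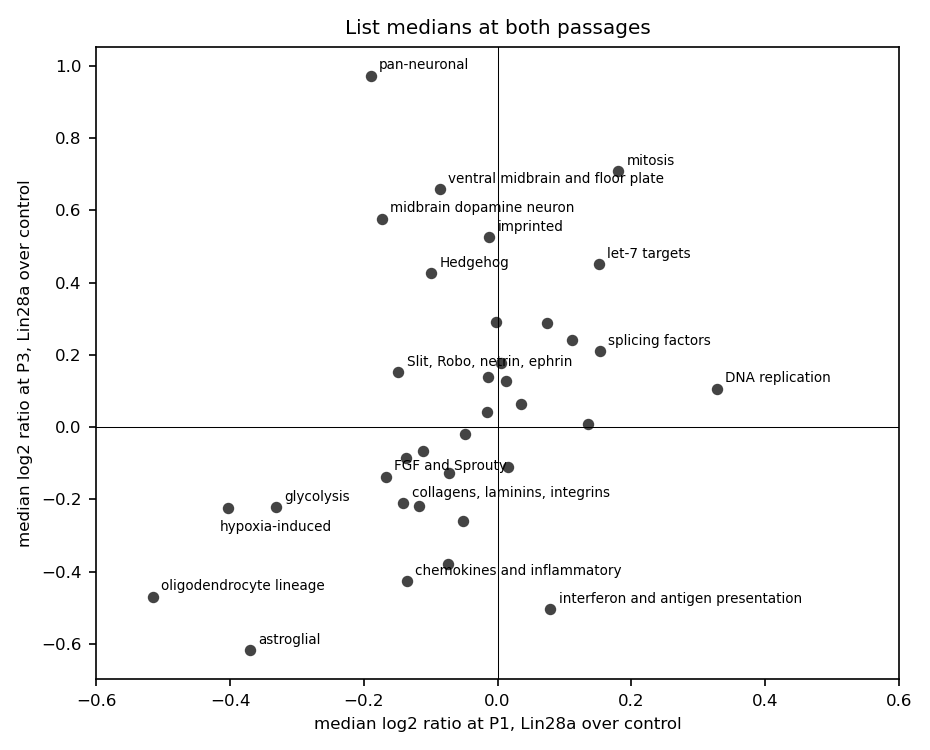
Median log2 ratio of Lin28a over control for 35 gene lists with 10 or more members entered at P1, on the x axis at P1 and on the y axis at P3, with 1 point for each list. Let-7 targets (0.15, 0.45) and mitosis (0.18, 0.71) lie above 0 at both passages, astroglial genes (-0.37, -0.62) below 0 at both, and pan-neuronal genes (-0.19, 0.97) lie below 0 at P1 and above it at P3.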

How the data were processed

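RNA-seq values are FPKM, deposited by the authors as 1 value per RefSeq gene. The file headers name no unit, so it was read from the tools and the values. Per the submitters' processing notes the tools were Cufflinks 2.1.1, TopHat2 2.0.6 and Bowtie 1.0.0, on build mm9. Per the labels the RNA was poly(A)-selected, while the labels' protocol names a total RNA kit. MicroRNA values are read counts on mature strands, deposited without normalization per the file headers, with totals of 8288819 in Lin28a and 6322534 in control at P1.

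Genes at 1 FPKM or more in either P1 library were compared as log2 ratios with a pseudocount of 1, in Python 3.11.15 (numpy 2.4.6, pandas 2.3.3, scipy 1.17.1, matplotlib 3.10.9), and the calculation was tested on simulated data. With 1 library a group no test was run. Other pseudocounts, filters and scalings were tried. The members and the 40 gene lists were chosen with earlier results of these data known. Named genes are Lin28a, Lin28b, those past 2-fold, up to 4 members per list with the largest ratios and any let-7 target, pathway gene or guide; others named were chosen after their values were seen. Some genes that this rule names are counted in their lists but not reported here. The P3 microRNA and polysome values were not used here.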

Additional observations from a re-analysis of the deposited data

Results flagged for a closer look

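The pan-neuronal list had a median log2 ratio of -0.19 at P1 and 0.97 at P3, opposite in sign. At P1 40 of 47 members were lower in Lin28a and at P3 39 of 43 were higher. The midbrain dopamine neuron list had a median of -0.17 at P1 and 0.58 at P3, with 17 of 22 members lower at P1 and 16 of 18 higher at P3. The Slit, Robo, netrin and ephrin list had a median of -0.15 at P1 and 0.15 at P3, with 33 of 43 members lower at P1 and 29 of 41 higher at P3. With 1 library in each group at each passage, the difference between passages was not tested for any of these lists.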

How the results depend on the processing

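The 17 higher and 12 lower genes past 2-fold came with a pseudocount of 1. They numbered 43 and 46 with a pseudocount of 0.1 and 23 and 26 with 0.5, since low genes pass more easily. With at least 1 FPKM asked of both libraries 5 were higher and 5 lower, and with 5 FPKM or more in either library 9 and 10. Leaving out genes at the floor gave 11 and 8, and counting protein-coding genes with an estimate in both libraries gave 8 and 7. A 1.5-fold size rule gave 77 higher and 121 lower. The protein-coding count and the 1.5-fold rule were chosen after seeing the data. No filter, centring on the median and upper quartile scaling gave 17 and 12 each.

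The log2 ratio of Lin28a was 11.0 with a pseudocount of 0.1 and 9.57 with 0.5. The let-7 and miR-98 sum ratio was 0.732 under median-of-ratios scaling. Of 37 list medians with alternatives, 6 had another sign under at least 1 setting. The medians that moved by more than 0.1 were those of FGF and Sprouty (-0.01), oligodendrocyte lineage (-0.23), endothelial (0.03) and neural crest genes (0.01) with no filter, of oligodendrocyte lineage (-0.64) with a pseudocount of 0.1, and of immediate early genes (0.03) at 5 FPKM or more. No paired analysis was possible because each group holds 1 library. The depth of the RNA-seq libraries is unknown, so no interval is given for FPKM, and variation between cultures cannot be read from 1 library a group.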

Other observations

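Of 188 genes past 1.5-fold with an estimate in both libraries, 119 were on no list, 42 of them higher and 77 lower in Lin28a. Single genes among these, chosen after their values were seen and standing for no group, are given here. Eme1 and Dna2, nucleases of DNA repair and replication, had 8.82 and 7.53 FPKM in Lin28a against 4.61 and 4.06 FPKM in control (log2 ratios 0.81 and 0.75). Smg5, a factor of nonsense-mediated RNA decay, had 41.5 FPKM in Lin28a and 25.2 FPKM in control (0.70). Zc3hav1l had 21.0 FPKM in Lin28a and 11.7 FPKM in control at P1 (0.79), and 12.2 and 2.15 FPKM in Lin28a and control at P3 (2.06). The immunoglobulin superfamily gene Igdcc3 and the homeobox gene Pbx2 were at 0.64 and 0.67 at P1 and at 1.73 and 1.03 at P3. The zinc finger genes Zfp568 and Zfp280b were at 0.97 and 0.82 at P1, and at 0.57 and 0.64 at P3.

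Of the lower genes, the glutamate receptor genes Grm5 and Gria1 had 3.26 and 5.63 FPKM in Lin28a against 7.19 and 9.09 FPKM in control (-0.94 and -0.61), and at P3 they were at -1.51 and -1.17. The neurotrophin receptor Ntrk2 was at -0.68 at P1 and -0.69 at P3. The brain proteoglycans Ncan and Cspg5 had 45.7 and 26.1 FPKM in Lin28a against 73.0 and 42.1 FPKM in control (-0.67 and -0.67). The carbonic anhydrase Car3 was at -0.84 and the caveolae gene Cav1 at -0.86.

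A list of 36 genes of the amino acid and unfolded protein stress responses, also written after values were seen, held 35 entered genes. Of these 21 were higher and 14 lower in Lin28a, with a median of 0.06 and 4 higher past 1.5-fold. The 4 were Atf3 (0.94), Sesn2 (0.71), Chac1 (0.68) and Nupr1 (0.66), while the chaperone Hspa5 was at -0.01 and the asparagine synthetase Asns at 0.00.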
